A study of Mus musculus with 12 samples.

Results

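This report concerns 43 macrophage and myeloid genes, all present among the 20661 genes counted, in mouse embryonic fibroblasts (MEFs) with and without ARF. They include receptors and their signalling adaptors, secreted proteins, pattern recognition receptors, leukocyte surface proteins, lysosomal and phagosomal proteins, actin-binding proteins and transcription factors. The members are marker genes selected on values of these same libraries, with their RNA, footprints and translation efficiency in *Arf*-/--shSCR MEFs against WT-shSCR MEFs already known. Values for that contrast are therefore given as a description, with no test. The study compared WT-shSCR MEFs (wild type, with a scrambled control hairpin), WT-shARF MEFs (wild type, with a hairpin against *Arf*) and *Arf*-/--shSCR MEFs (*Arf* knockout, with the control hairpin), each with 2 replicates measured by RNAseq and 2 by ribosome profiling, 12 libraries in all. Every culture was at passage 4 and carried a lentiviral short hairpin RNA with puromycin selection. The *Arf*-/- MEFs came from B6.129X1-Cdkn2atm1Cjs/KaiJ embryos, in which a neo cassette takes the place of exon 1β of *Cdkn2a*, while the strain of the wild-type MEFs is C57BL/6J in the sample labels and B6129SF2/J in the paper's methods. Knockout and wild-type MEFs were separate preparations, so genotype, strain and preparation cannot be told apart. No source says whether the replicates were separate cultures, so the spread between them may be technical.

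Macrophages are phagocytes of the myeloid lineage that live in most tissues, the embryo included, and they can be carried along when fibroblasts are grown from dissociated embryos. Their survival depends on the receptor CSF1R, whose ligand CSF1 is made by fibroblasts, and their gene program on the transcription factor PU.1, which is encoded by *Spi1*. Many of their receptors have no signalling tail of their own and act through the adaptors TYROBP (DAP12) and FCER1G. In bulk libraries, fewer cells of a type and less RNA per cell cannot be told apart.

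Counts on coding sequences summed to between 1578627 and 3989908 per RNAseq library and between 2544319 and 5157572 per ribosome profiling library, so 1 count was worth between 0.196 and 0.637 CPM (counts scaled to library size, with TMM factors computed within each assay). *Cdkn2a*, the gene that encodes ARF and INK4A, was the check of the labels. Its RNA counts were 119 and 65 in WT-shSCR, 1201 and 2852 in the libraries labelled WT-shARF and 76 and 75 in *Arf*-/--shSCR. Its footprint counts were 285 and 168 in WT-shSCR, 1478 and 3575 in the libraries labelled WT-shARF and 206 and 178 in *Arf*-/--shSCR. *Cdkn2a* was thus higher, not lower, in the libraries labelled WT-shARF (RNA log2 fold change 3.91 ± 0.16 (SE), adjusted p = 5.57e-18, edgeR quasi-likelihood F test, p adjusted by Benjamini-Hochberg), and those libraries are named by their label throughout. Counts per gene do not separate *Arf* from Ink4a, and they do not measure protein. The paper reports knockdown and knockout of ARF in MEFs by immunoblot, and it states that the hairpin leaves INK4A expression unaffected. Fibroblast markers were plentiful in every group when summed, a sum carried by its most abundant genes, among them *Vim*, *Col1a1* and *Col1a2*. *Pdgfra*, *Dcn*, *Lum* and *Fap* had only 1 to 10 RNA counts per WT-shSCR library. Single markers differed between groups, with RNA log2 fold changes in *Arf*-/--shSCR of 2.38 ± 0.53 for *Pdgfra* and -0.62 ± 0.14 for *Col5a1*. The 12 fibroblast markers summed to 16408 to 16897 RNA CPM in WT-shSCR, 18723 to 20293 in the libraries labelled WT-shARF and 14941 to 15986 in *Arf*-/--shSCR.

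The share of these genes with a binding element for PU.1 near their start was read from RefSeq promoter windows on GRCm38.p6, each of 300 bases. Windows were found for 33 of the 43 genes. The core PU box, GAGGAA on either strand, lay in the windows of 22 of these 33 genes (66.7%), against 31.3% of 27025 genes. The longer form GAGGAAG, which contains the core, lay in 11 of the 33 (33.3%), against 15.4% of all genes. The match is one of letters, and PU.1 binding was not measured. The windows printed are those of the 3 members with the highest WT-shSCR RNA CPM among the 11 that hold GAGGAAG, to show the match, with GAGGAAG or its reverse complement in capitals. They lie at chr4:136892865-136893164 on the minus strand (*C1qc*, 1 match), chr7:128062390-128062689 on the plus strand (*Itgam*, 2 matches) and chr3:95526536-95526835 on the plus strand (*Ctss*, 1 match), each spanning the annotated start of its gene.
C1qc: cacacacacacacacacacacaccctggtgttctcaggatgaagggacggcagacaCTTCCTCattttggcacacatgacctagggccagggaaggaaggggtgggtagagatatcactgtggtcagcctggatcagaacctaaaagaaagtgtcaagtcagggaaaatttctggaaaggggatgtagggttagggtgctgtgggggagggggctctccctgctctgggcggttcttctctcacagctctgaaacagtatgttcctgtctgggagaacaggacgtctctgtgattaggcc
Itgam: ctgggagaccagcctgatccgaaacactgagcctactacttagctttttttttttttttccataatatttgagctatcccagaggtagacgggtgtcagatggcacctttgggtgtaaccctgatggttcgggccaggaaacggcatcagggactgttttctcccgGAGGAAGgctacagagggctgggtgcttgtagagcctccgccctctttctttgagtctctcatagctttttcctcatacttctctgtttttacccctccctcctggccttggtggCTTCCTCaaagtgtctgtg
Ctss: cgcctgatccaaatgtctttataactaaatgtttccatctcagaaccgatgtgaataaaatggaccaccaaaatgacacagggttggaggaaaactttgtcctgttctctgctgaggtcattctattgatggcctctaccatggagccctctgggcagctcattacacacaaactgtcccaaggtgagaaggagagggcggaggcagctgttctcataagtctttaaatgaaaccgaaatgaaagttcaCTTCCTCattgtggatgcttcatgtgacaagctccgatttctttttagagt

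Summed over the 43 genes, the RNA level was 1526 and 1422 CPM in the WT-shSCR pair, 716 and 599 CPM in the pair labelled WT-shARF and 198 and 272 CPM in the *Arf*-/--shSCR pair. Summed footprints were 1902 and 1839 CPM, 875 and 794 CPM, and 199.96 and 245 CPM in the same order. The groups did not overlap in either assay. The mean of WT-shSCR was 2.24 times that of the libraries labelled WT-shARF in both assays, and it was 6.28 times that of *Arf*-/--shSCR for RNA and 8.41 times for footprints. Because the sum is carried by its most abundant genes, it was also taken without *Apoe* and *Lyz2*, which gave 1.82 and 4.85 times for RNA and 1.73 and 6.85 times for footprints. Endothelial markers, 6 genes, summed to 29.9 to 45.6 RNA CPM in WT-shSCR and 26.8 to 29.8 in *Arf*-/--shSCR.

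**Figure D1:**
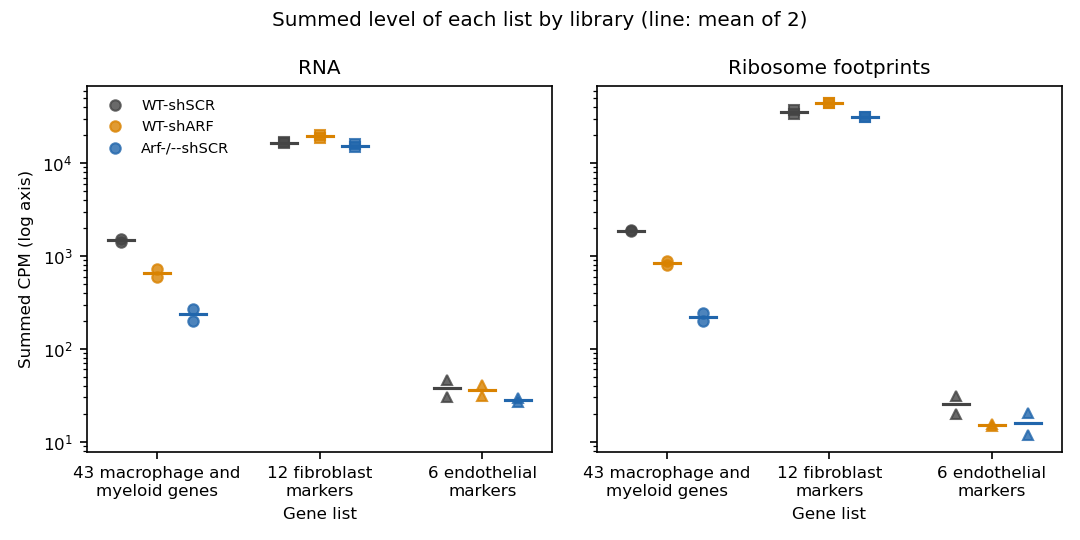
Summed CPM (log axis) of the 43 macrophage and myeloid genes, 12 fibroblast markers and 6 endothelial markers in each RNA library (left) and footprint library (right), as points, with a line at the mean of the 2 libraries of a group. The macrophage and myeloid genes step down from WT-shSCR to WT-shARF to *Arf*-/--shSCR, with mean RNA sums of 1474, 658 and 235 CPM.

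A filter on low counts left 35 of the 43 genes for the RNA comparison of *Arf*-/--shSCR with WT-shSCR, and 31 of them were called lower and 0 higher, where 3.99% of all genes tested were called lower. The genes were chosen on this contrast, so nothing is read from that count. Over all 43 genes, the RNA of both *Arf*-/--shSCR libraries was below both WT-shSCR libraries for 42, the exception being *Tlr13*. Among all genes tested, 25.3% showed that order. For footprints, 36 of 38 members tested were called lower (8.95% of all genes tested), and 41 of 43 had both *Arf*-/--shSCR libraries below both controls (26.9% of all genes tested), the exceptions being *Fcgr2b* and *Cd86*, which had few counts. *Cd86* footprint counts were 1 and 2 in WT-shSCR, 6 and 17 in the libraries labelled WT-shARF and 0 and 16 in *Arf*-/--shSCR. The median log2 fold change of the members tested was -3.02 for RNA and -3.54 for footprints, with the median of all genes at 0.00 in both. The counts depended on single libraries. Without WT-shSCR replicate 1 the RNA count was 12, without replicate 2 it was 18, and without either the footprint count was 0.

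The comparison of the libraries labelled WT-shARF with WT-shSCR shares the WT-shSCR libraries with the contrast the members were chosen on, and its values were also known when they were chosen, so its tests are not independent support. Genes picked for high values in those libraries can be lower elsewhere for that reason alone. With this in mind, 13 of 38 members tested fell in RNA and 0 rose, against 4.17% of all genes tested called lower, and the median log2 fold change of the members was -1.05. In footprints, 16 of 40 members tested fell and 0 rose, against 5.5% of all genes tested, and the median was -0.92. Both libraries labelled WT-shARF lay below both WT-shSCR libraries for 32 of 43 members in RNA (23.9% of all genes tested) and for 29 of 43 in footprints (25.2%). The RNA count was 8 with DESeq2 or without WT-shSCR replicate 1 and 5 without WT-shARF replicate 2, and the footprint count was 9 without WT-shARF replicate 2. *Arf*-/--shSCR was lower than the libraries labelled WT-shARF as well, a comparison that shares the *Arf*-/--shSCR libraries with the choice. There the log2 fold change was below 0 for 27 of 29 members tested in RNA, with 11 called lower (1.19% of all genes tested), and for 36 of 36 in footprints, with 22 called lower (4.3% of all genes tested). Without WT-shARF replicate 1 or 2 these counts were 2 and 1 in RNA and 0 in footprints either way.

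**Figure D2:**
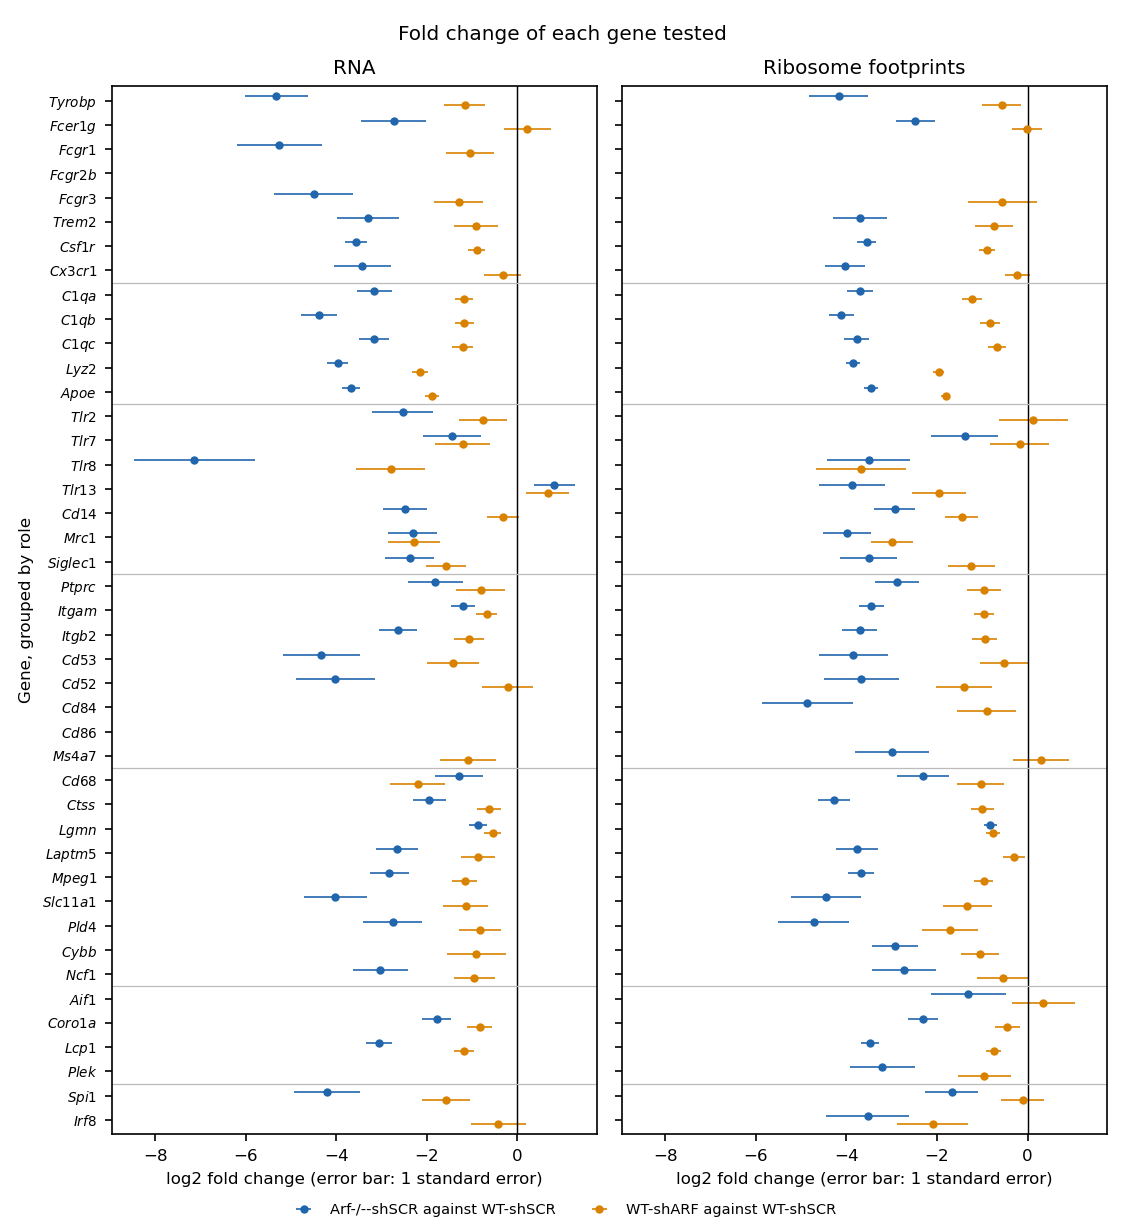
Log2 fold change against WT-shSCR (x axis, error bar 1 standard error from edgeR) of each member that passed the filter, for RNA (left) and footprints (right), in *Arf*-/--shSCR (blue) and in the libraries labelled WT-shARF (orange). *Tlr13* is the one member with RNA above 0 in *Arf*-/--shSCR, at 0.82, and *Lgmn* is the one with the smallest footprint difference there, at -0.82.

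**Figure D3:**
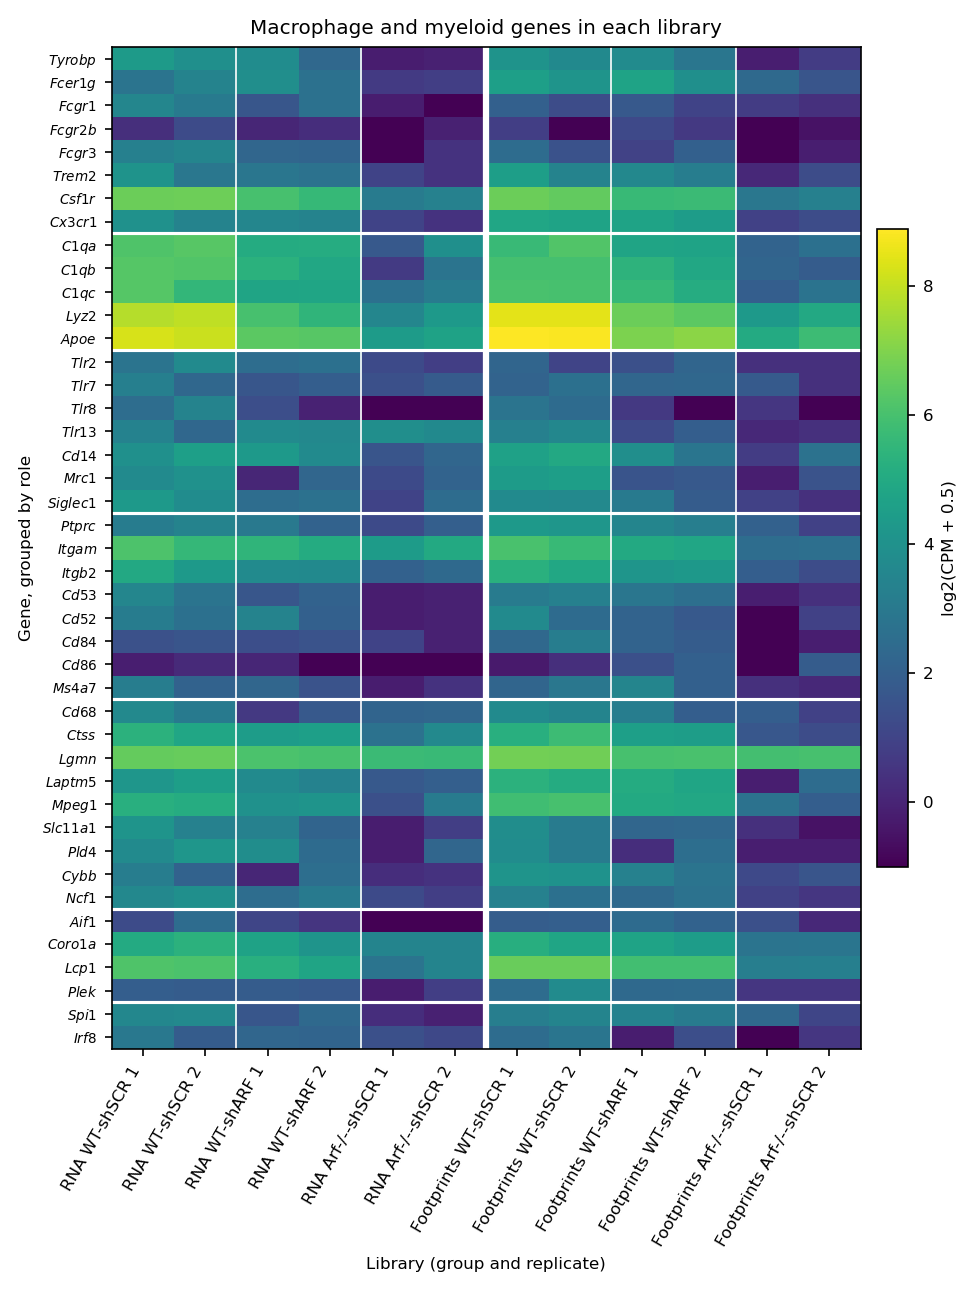
Level of each of the 43 genes in each library as log2(CPM + 0.5), with RNA in the left 6 columns and footprints in the right 6, and white lines between groups and between roles. *Apoe* and *Lyz2* are the brightest rows in WT-shSCR, and nearly every row is darkest in the *Arf*-/--shSCR columns.

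Among the receptors and adaptors, *Csf1r* encodes the receptor of the macrophage growth factor CSF1. Its RNA was at 102 and 103 CPM in WT-shSCR, 64.2 and 49 in the libraries labelled WT-shARF and 8.01 and 9.51 in *Arf*-/--shSCR. Its footprints were at 101 and 89.5 CPM in WT-shSCR, 50.5 and 52.6 in the libraries labelled WT-shARF and 7.06 and 9.45 in *Arf*-/--shSCR. The 3 groups were ordered without overlap in both assays. Against WT-shSCR, *Csf1r* fell in the libraries labelled WT-shARF by a log2 fold change of -0.90 ± 0.19 (SE) in RNA (adjusted p = 0.00247, edgeR) and -0.89 ± 0.17 in footprints (adjusted p = 4.15e-04, edgeR). Its log2 fold change in *Arf*-/--shSCR was -3.56 ± 0.25 in RNA and -3.56 ± 0.22 in footprints. *Tyrobp*, the adaptor through which TREM2 and other receptors signal, had RNA counts of 54 and 23 in WT-shSCR, 25 and 19 in the libraries labelled WT-shARF and 1 and 1 in *Arf*-/--shSCR. With 2 counts in all in *Arf*-/--shSCR, its RNA was 46.1-fold lower there than in WT-shSCR, with a counting interval from 12.3 to 388. Its footprint counts were 50 and 32 in WT-shSCR, 37 and 33 in the libraries labelled WT-shARF and 2 and 6 in *Arf*-/--shSCR. *Tyrobp* did not pass the test in the libraries labelled WT-shARF, at -1.16 ± 0.45 (adjusted p = 0.126) in RNA and -0.57 ± 0.43 (adjusted p = 0.467) in footprints, both from edgeR.

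*Cx3cr1*, the receptor of fractalkine, and *Fcer1g*, the adaptor shared by Fc receptors, did not pass the test in the libraries labelled WT-shARF. *Cx3cr1* RNA was at 15.4 and 10.2 CPM in WT-shSCR, 11.1 and 10.2 in the libraries labelled WT-shARF and 1.46 and 0.865 in *Arf*-/--shSCR, and the first 2 groups overlapped. *Cx3cr1* footprints were at 28.2 and 25.9 CPM in WT-shSCR, 25.9 and 21.2 in the libraries labelled WT-shARF and 1.37 and 1.97 in *Arf*-/--shSCR, with the highest WT-shARF value close to the lowest WT-shSCR value. The log2 fold change of *Cx3cr1* was -0.32 ± 0.41 in RNA (adjusted p = 0.724) and -0.22 ± 0.28 in footprints (adjusted p = 0.706), and that of *Fcer1g* was 0.22 ± 0.52 (adjusted p = 0.864) and 0.00 ± 0.33 (adjusted p = 0.997), all from edgeR. The 4 values in *Arf*-/--shSCR were -3.42 ± 0.64 and -4.03 ± 0.44 for *Cx3cr1* and -2.73 ± 0.71 and -2.48 ± 0.44 for *Fcer1g*. *Fcgr1*, the high-affinity receptor of IgG, had RNA counts of 29 and 12 in WT-shSCR, 5 and 25 in the libraries labelled WT-shARF and 1 and 0 in *Arf*-/--shSCR. Its single count in *Arf*-/--shSCR put its RNA 49.1-fold lower than in WT-shSCR, with a counting interval from 8.34 to 1987. The *Fcgr1* footprint counts were too few for a test. They were 11 and 5 in WT-shSCR, 8 and 7 in the libraries labelled WT-shARF and 6 and 4 in *Arf*-/--shSCR. These footprint libraries differed in depth, with 1 count worth 0.325 and 0.387 CPM in WT-shSCR and 0.196 and 0.197 CPM in *Arf*-/--shSCR. In CPM, both *Arf*-/--shSCR values were below both WT-shSCR values. *Fcgr2b* and *Fcgr3*, a pair of IgG receptors of near-identical extracellular sequence that short reads may not separate, had 5 and 42 RNA counts in WT-shSCR and 1 and 2 in *Arf*-/--shSCR. *Trem2*, a lipid-sensing receptor that signals through TYROBP, had log2 fold changes of -3.30 ± 0.68 in RNA and -3.69 ± 0.60 in footprints in *Arf*-/--shSCR. Under the WT-shARF label, *Csf1r* alone passed the test among the 7 receptors and adaptors tested in RNA and among the 6 tested in footprints.

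The secreted proteins stood apart from that, since all 5 fell in the libraries labelled WT-shARF in both assays. *Lyz2* encodes the lysozyme of macrophages, and *Apoe* encodes apolipoprotein E, which macrophages and other cells release. *Lyz2* RNA was at 216 and 243 CPM in WT-shSCR, 63.7 and 43.5 in the libraries labelled WT-shARF and 10.9 and 19 in *Arf*-/--shSCR. *Lyz2* footprints were at 352 and 350.1 CPM in WT-shSCR, 99.1 and 83.4 in the libraries labelled WT-shARF and 19 and 30.5 in *Arf*-/--shSCR. Every library labelled WT-shARF was below every WT-shSCR library and above every *Arf*-/--shSCR library, for *Lyz2* and for *Apoe* alike. *Apoe* RNA was at 311 and 270.2 CPM in WT-shSCR, 83.3 and 78 in the libraries labelled WT-shARF and 20.7 and 25.5 in *Arf*-/--shSCR. *Apoe* footprints were at 469 and 451 CPM in WT-shSCR, 122 and 141 in the libraries labelled WT-shARF and 32.2 and 53.4 in *Arf*-/--shSCR. *Lyz2* fell in the libraries labelled WT-shARF by a log2 fold change of -2.15 ± 0.18 in RNA (adjusted p = 6.68e-10) and -1.96 ± 0.12 in footprints (adjusted p = 2.63e-14, edgeR). *Apoe* fell by 1.87 ± 0.15 in RNA (adjusted p = 4.44e-10) and 1.81 ± 0.10 in footprints (adjusted p = 9.78e-15, edgeR) on the log2 scale. The log2 fold changes in *Arf*-/--shSCR were -3.97 ± 0.23 and -3.86 ± 0.16 for *Lyz2* and -3.67 ± 0.19 and -3.46 ± 0.15 for *Apoe*. Reads that fit Lyz1 and *Lyz2* equally well were left out of the counts, so the level of *Lyz2* may be understated.

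*C1qa*, *C1qb* and *C1qc* encode the chains of complement C1q, for which macrophages are a main source. *C1qa* RNA was at 70.8 and 79.7 CPM in WT-shSCR, 33.4 and 33.8 in the libraries labelled WT-shARF and 2.91 and 14.7 in *Arf*-/--shSCR. *C1qa* footprints were at 51.3 and 72 CPM in WT-shSCR, 26.7 and 26 in the libraries labelled WT-shARF and 3.92 and 5.71 in *Arf*-/--shSCR, and the groups did not overlap in either assay. Against WT-shSCR, the RNA of the 3 chains fell under the WT-shARF label with log2 fold changes of -1.17 ± 0.20, -1.17 ± 0.21 and -1.20 ± 0.23 (adjusted p = 3.30e-04, 4.80e-04 and 0.00113, edgeR). Their footprints had log2 fold changes of -1.23 ± 0.22, -0.83 ± 0.21 and -0.68 ± 0.21 (adjusted p = 1.93e-04, 0.00769 and 0.0281, edgeR). The chains assemble in equal number, and their RNA in WT-shSCR was also alike per length of coding sequence, at 102, 98.6 and 83.1 CPM per kb. Per length, *Lyz2* (517 CPM per kb) and *Apoe* (311 CPM per kb) had the highest RNA of the 43 genes in WT-shSCR, followed by the 3 C1q chains, and *Cd86*, with 0.547 CPM per kb, had the lowest. The lead of *Lyz2* and *Apoe* was narrower in the other groups. Together they made up 34.6% and 36.1% of the RNA counts of the 43 genes in WT-shSCR, 20.5% and 20.3% in the libraries labelled WT-shARF and 16.0% and 16.4% in *Arf*-/--shSCR. These shares are a description, since both genes were singled out as the most abundant in WT-shSCR. In footprints the shares were 43.2% and 43.6%, 25.3% and 28.3%, and 25.6% and 34.3%.

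**Figure D4:**
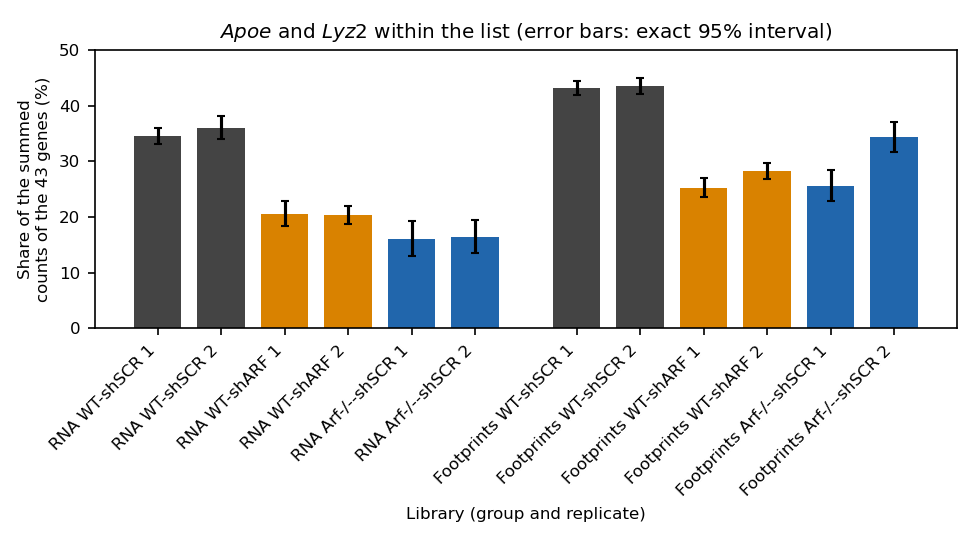
Share of the summed counts of the 43 genes taken by *Apoe* and *Lyz2* in each library (bars, %), with exact (Clopper-Pearson) 95% binomial intervals, which cover counting error only, as error bars. The 4 WT-shSCR bars stand between 34.6% and 43.6%, above those of the same assay in the other groups.

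Among the pattern recognition receptors, 3 of 7 fell in RNA and 4 of 7 in footprints in the libraries labelled WT-shARF. *Mrc1*, the mannose receptor (CD206), fell there in both assays, by a log2 fold change of -2.28 ± 0.57 in RNA (adjusted p = 0.0113) and -2.99 ± 0.46 in footprints (adjusted p = 2.27e-05, edgeR), beside -2.31 ± 0.54 and -3.99 ± 0.54 in *Arf*-/--shSCR. Its RNA values in the latter 2 groups overlapped. *Tlr8*, an endosomal sensor of RNA, had RNA counts of 14 and 16 in WT-shSCR, 4 and 2 in the libraries labelled WT-shARF and 0 and 0 in *Arf*-/--shSCR. With 0 counts in both *Arf*-/--shSCR libraries its RNA was at least 6.48-fold lower there than in WT-shSCR, taking a floor of 3 counts per library. Its footprint counts were 20 and 13 in WT-shSCR, 3 and 0 in the libraries labelled WT-shARF and 5 and 0 in *Arf*-/--shSCR, and it fell in the libraries labelled WT-shARF in both assays (-2.80 ± 0.76, adjusted p = 0.0213, for RNA and -3.69 ± 0.998, adjusted p = 0.0125, for footprints, edgeR). *Siglec1*, a sialic acid receptor also called CD169, had RNA at 19.6 and 13.4 CPM in WT-shSCR, 5.31 and 5.94 in the libraries labelled WT-shARF and 1.46 and 5.19 in *Arf*-/--shSCR. *Siglec1* footprints were at 12.7 and 12 CPM in WT-shSCR, 7.82 and 3.12 in the libraries labelled WT-shARF and 1.37 and 0.788 in *Arf*-/--shSCR, and neither assay had overlap between WT-shSCR and the others. It fell in RNA in the libraries labelled WT-shARF (-1.57 ± 0.44, adjusted p = 0.0263, edgeR), while its footprints did not pass the test (-1.24 ± 0.52, adjusted p = 0.129, edgeR). *Cd14*, the co-receptor of TLR4 for bacterial lipopolysaccharide, showed the reverse. *Cd14* RNA was at 15.1 and 23.6 CPM in WT-shSCR, 19.1 and 12.6 in the libraries labelled WT-shARF and 2.55 and 4.32 in *Arf*-/--shSCR, so that the first 2 groups overlapped. *Cd14* footprints were at 24.4 and 30.6 CPM in WT-shSCR, 14.2 and 6.66 in the libraries labelled WT-shARF and 1.18 and 6.1 in *Arf*-/--shSCR, without overlap. They fell in the libraries labelled WT-shARF (-1.46 ± 0.37, adjusted p = 0.00724), while the RNA did not pass the test (-0.31 ± 0.36, adjusted p = 0.688, edgeR). The change of translation efficiency (TE) itself, -1.13 ± 0.53 on the log2 scale, did not pass either (adjusted p = 0.73, edgeR). *Tlr2* and *Tlr7* had 37 and 31 RNA counts in WT-shSCR and 8 and 13 in *Arf*-/--shSCR, and neither passed a test in the libraries labelled WT-shARF.

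*Tlr13*, an endosomal receptor for bacterial ribosomal RNA, lies on chromosome X from 106143204 to 106160493 on the plus strand of GRCm38, and it went against the other members in RNA. *Tlr13* RNA was at 9.8 and 4.46 CPM in WT-shSCR, 12.7 and 11.6 in the libraries labelled WT-shARF and 14.2 and 12.5 in *Arf*-/--shSCR. The lowest values were in WT-shSCR, where both libraries were below the 4 others. *Tlr13* footprints were at 9.42 and 11.2 CPM in WT-shSCR, 1.78 and 3.33 in the libraries labelled WT-shARF and 0.589 and 0.788 in *Arf*-/--shSCR, and here both WT-shSCR libraries were above the others. *Tlr13* had a log2 fold change in *Arf*-/--shSCR of 0.82 ± 0.45 in RNA, -3.88 ± 0.72 in footprints and -4.73 ± 0.80 in TE, defined as the interaction of assay and condition. Under the WT-shARF label the values were 0.67 ± 0.47 in RNA (adjusted p = 0.451), -1.95 ± 0.61 in footprints (adjusted p = 0.0309) and -2.61 ± 0.75 in TE (adjusted p = 0.297, edgeR), so that only the footprints passed the test. The counts behind these values were small, from 7 to 49 in RNA and from 3 to 29 in footprints.

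*Itgam* encodes CD11b, the integrin chain that pairs with CD18, the product of *Itgb2*, to form complement receptor 3. *Itgam* lies on chromosome 7 from 128062640 to 128118491 on the plus strand of GRCm38, and its RNA was at 69.3 and 47.2 CPM in WT-shSCR, 43 and 33.3 in the libraries labelled WT-shARF and 20.7 and 31.1 in *Arf*-/--shSCR. Its footprints were at 65.9 and 49.95 CPM in WT-shSCR, 31.6 and 28.5 in the libraries labelled WT-shARF and 5.3 and 5.51 in *Arf*-/--shSCR. In *Arf*-/--shSCR the RNA stayed at 20.7 CPM or more while the footprints were at 5.51 CPM or less, and the log2 fold changes were -1.21 ± 0.27 in RNA, -3.45 ± 0.27 in footprints and -2.27 ± 0.39 in TE. Its partner *Itgb2* was closer in the 2 assays, with -2.63 ± 0.42 and -3.70 ± 0.38. *Itgb2* RNA was at 30.9 and 19.8 CPM in WT-shSCR, 12.7 and 12.4 in the libraries labelled WT-shARF and 3.64 and 4.76 in *Arf*-/--shSCR. *Itgb2* footprints were at 38.3 and 29.8 CPM in WT-shSCR, 17.1 and 18.5 in the libraries labelled WT-shARF and 3.34 and 1.97 in *Arf*-/--shSCR, ordered without overlap as in RNA. In the libraries labelled WT-shARF, *Itgb2* fell in RNA (-1.06 ± 0.33, adjusted p = 0.0456) and footprints (-0.95 ± 0.28, adjusted p = 0.0231), and *Itgam* in footprints (-0.97 ± 0.22, adjusted p = 0.00254) but not in RNA (-0.68 ± 0.22, adjusted p = 0.062, edgeR). *Ptprc*, which encodes CD45, the phosphatase carried by all white blood cells, had RNA at 8.29 and 10.2 CPM in WT-shSCR, 7.43 and 3.8 in the libraries labelled WT-shARF and 1.82 and 3.46 in *Arf*-/--shSCR. *Ptprc* footprints were at 19.5 and 17.8 CPM in WT-shSCR, 10.7 and 8.74 in the libraries labelled WT-shARF and 3.73 and 1.38 in *Arf*-/--shSCR, and WT-shSCR was above the other groups in both assays. Its values in the libraries labelled WT-shARF did not pass the test (RNA -0.81 ± 0.54, adjusted p = 0.428, and footprints -0.97 ± 0.38, adjusted p = 0.103, edgeR). The other surface proteins (*Cd53*, *Cd52*, *Cd84*, *Cd86* and *Ms4a7*) had between 2 and 39 RNA counts in WT-shSCR and between 0 and 5 in *Arf*-/--shSCR, and none passed a test in the libraries labelled WT-shARF. There, besides *Cd53*, 2 were tested in RNA, *Cd52* at -0.21 ± 0.57 (adjusted p = 0.884) and *Ms4a7* at -1.09 ± 0.63 (adjusted p = 0.336, edgeR).

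Of the lysosomal and phagosomal genes, *Ctss* resembled *Itgam*. *Ctss* encodes cathepsin S, an endosomal protease, and lies on chromosome 3 from 95526786 to 95556403 on the plus strand of GRCm38. *Ctss* RNA was at 39.9 and 28 CPM in WT-shSCR, 21.8 and 23.3 in the libraries labelled WT-shARF and 6.19 and 12.1 in *Arf*-/--shSCR. *Ctss* footprints were at 37 and 53.8 CPM in WT-shSCR, 23.5 and 22.3 in the libraries labelled WT-shARF and 2.75 and 1.97 in *Arf*-/--shSCR, and both assays kept the 3 groups apart. The log2 fold changes in *Arf*-/--shSCR were -1.94 ± 0.37 in RNA, -4.28 ± 0.36 in footprints and -2.36 ± 0.54 in TE. *Ctss* in the libraries labelled WT-shARF fell in footprints (-0.999 ± 0.25, adjusted p = 0.00655) and did not pass the test in RNA (-0.63 ± 0.26, adjusted p = 0.158, edgeR). *Lgmn*, which encodes legumain, a lysosomal protease found in many cell types, differed least in *Arf*-/--shSCR among the members that were below 0. *Lgmn* RNA was at 91.6 and 95.6 CPM in WT-shSCR, 67.4 and 62.7 in the libraries labelled WT-shARF and 52 and 51.5 in *Arf*-/--shSCR. *Lgmn* footprints were at 109 and 107 CPM in WT-shSCR, 62.9 and 65.5 in the libraries labelled WT-shARF and 60.4 and 64.4 in *Arf*-/--shSCR, and in footprints the libraries labelled WT-shARF overlapped with *Arf*-/--shSCR. Its log2 fold changes were -0.87 ± 0.20 and -0.82 ± 0.15 in *Arf*-/--shSCR, beside -0.54 ± 0.18 (adjusted p = 0.0609) and -0.76 ± 0.16 (adjusted p = 0.00111, edgeR) under the WT-shARF label. *Mpeg1*, the pore-forming perforin-2 of macrophages, had RNA at 37.3 and 33.8 CPM in WT-shSCR, 15.4 and 16.6 in the libraries labelled WT-shARF and 2.18 and 8.22 in *Arf*-/--shSCR. *Mpeg1* footprints were at 56.5 and 62.7 CPM in WT-shSCR, 31.6 and 29.96 in the libraries labelled WT-shARF and 6.08 and 3.35 in *Arf*-/--shSCR, with no overlap in either assay. *Mpeg1* fell in the libraries labelled WT-shARF in RNA (-1.16 ± 0.28, adjusted p = 0.00743) and in footprints (-0.97 ± 0.21, adjusted p = 0.00178, edgeR).

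*Laptm5*, a lysosomal membrane protein of blood cells, had footprints at 40.6 and 33.3 CPM in WT-shSCR, 33.4 and 27.7 in the libraries labelled WT-shARF and 0.392 and 5.12 in *Arf*-/--shSCR. The first 2 groups overlapped and only *Arf*-/--shSCR was low, with -0.30 ± 0.24 (adjusted p = 0.508, edgeR) under the WT-shARF label and -3.77 ± 0.46 in *Arf*-/--shSCR. *Cd68*, a lysosomal membrane glycoprotein used as a macrophage marker, was the one member of this role besides *Mpeg1* that fell in RNA in the libraries labelled WT-shARF (-2.20 ± 0.61, adjusted p = 0.0229, edgeR), from 32 and 12 counts to 2 and 12. *Slc11a1* (NRAMP1, a metal transporter of phagosomes), *Pld4* (a lysosomal exonuclease), *Cybb* and *Ncf1* (subunits of the phagocyte NADPH oxidase) had log2 fold changes in footprints of -4.45 ± 0.77, -4.72 ± 0.78, -2.92 ± 0.51 and -2.73 ± 0.70 in *Arf*-/--shSCR. None of these 4 genes passed a test in the libraries labelled WT-shARF, where their footprints were at -1.33 ± 0.54, -1.71 ± 0.62, -1.05 ± 0.42 and -0.55 ± 0.56.

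Among the actin-binding and signalling proteins of leukocytes, 1 of 2 tested fell in RNA and 1 of 4 in footprints in the libraries labelled WT-shARF. *Lcp1* encodes L-plastin, which bundles actin, and its RNA was at 71.2 and 67.5 CPM in WT-shSCR, 37.2 and 26.6 in the libraries labelled WT-shARF and 6.55 and 10.4 in *Arf*-/--shSCR. *Lcp1* footprints were at 97.7 and 97.6 CPM in WT-shSCR, 58.3 and 59.3 in the libraries labelled WT-shARF and 8.83 and 9.06 in *Arf*-/--shSCR, and the 3 groups were apart in both assays. *Lcp1* fell in the libraries labelled WT-shARF in RNA (-1.18 ± 0.22, adjusted p = 6.48e-04) and in footprints (-0.74 ± 0.16, adjusted p = 0.0021, edgeR), beside -3.06 ± 0.29 and -3.48 ± 0.21 in *Arf*-/--shSCR. *Coro1a*, which encodes coronin 1A, had RNA at 32 and 40.1 CPM in WT-shSCR, 25.5 and 16.6 in the libraries labelled WT-shARF and 10.6 and 10.4 in *Arf*-/--shSCR. *Coro1a* footprints were at 36 and 27.5 CPM in WT-shSCR, 26.3 and 21.2 in the libraries labelled WT-shARF and 6.48 and 6.69 in *Arf*-/--shSCR, with *Arf*-/--shSCR below all other libraries. Its values in the libraries labelled WT-shARF did not pass the test (-0.83 ± 0.28 and -0.45 ± 0.27, adjusted p = 0.0665 and 0.338, edgeR). *Plek*, which encodes pleckstrin, a substrate of protein kinase C, had RNA counts of 9 and 5 in WT-shSCR, 6 and 12 in the libraries labelled WT-shARF and 1 and 3 in *Arf*-/--shSCR, too few for a test in RNA. Its footprint counts were 16 and 34 in WT-shSCR, 13 and 23 in the libraries labelled WT-shARF and 5 and 5 in *Arf*-/--shSCR, with a log2 fold change of -3.20 ± 0.73 in *Arf*-/--shSCR and -0.95 ± 0.58 (adjusted p = 0.339, edgeR) under the WT-shARF label. *Aif1* (IBA1), an actin-binding marker of macrophages, had 13 RNA counts in WT-shSCR and 0 in *Arf*-/--shSCR, at least 2.92-fold lower. Its footprint counts were 10 and 9 in WT-shSCR and 11 and 3 in the deeper *Arf*-/--shSCR libraries, with a log2 fold change of -1.30 ± 0.82.

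Both transcription factors had few counts. *Spi1*, which encodes PU.1, had RNA counts of 30 and 19 in WT-shSCR, 5 and 20 in the libraries labelled WT-shARF and 2 and 1 in *Arf*-/--shSCR. Its footprint counts were 27 and 27 in WT-shSCR, 28 and 39 in the libraries labelled WT-shARF and 23 and 8 in *Arf*-/--shSCR. In RNA both other groups lay below WT-shSCR, while in footprints the libraries labelled WT-shARF overlapped with it. Its 3 RNA counts in *Arf*-/--shSCR put its RNA 19.6-fold lower than in WT-shSCR, with a counting interval from 6.31 to 98.2, while the fitted log2 fold change in footprints was -1.68 ± 0.59. In the libraries labelled WT-shARF neither assay passed the test (-1.58 ± 0.52 in RNA and -0.11 ± 0.47 in footprints, adjusted p = 0.0633 and 0.933, edgeR). *Irf8*, a partner of PU.1, had RNA counts of 19 and 5 in WT-shSCR, 8 and 17 in the libraries labelled WT-shARF and 6 and 4 in *Arf*-/--shSCR. *Irf8* footprint counts were 16 and 17 in WT-shSCR, 1 and 10 in the libraries labelled WT-shARF and 0 and 5 in *Arf*-/--shSCR, and the fit gave -2.10 ± 0.79 (adjusted p = 0.0819, edgeR) under the WT-shARF label and -3.53 ± 0.92 in *Arf*-/--shSCR.

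The RNA and the footprints of most members differed in the same direction. In *Arf*-/--shSCR both log2 fold changes were below 0 for 31 of the 32 members tested in both assays, and in the libraries labelled WT-shARF for 33 of 37. The median change of TE over the members was -0.44 in *Arf*-/--shSCR and 0.13 in the libraries labelled WT-shARF. In *Arf*-/--shSCR, 2 of 40 members tested for TE were called lower, *Tlr13* and *Itgam*, beside 0.106% of all genes tested, and 0 were called higher. DESeq2 called 0 members lower there, and the edgeR count was 0 without either WT-shSCR replicate and 1 without *Arf*-/--shSCR replicate 2. TE in this contrast was known when the members were chosen, so nothing is read from these counts. In the libraries labelled WT-shARF 0 of 41 members tested were called lower in TE by edgeR and 0 by DESeq2 (0% of all genes tested by edgeR), and at an unadjusted p under 0.05 2 were lower (*Tlr13* and *Cd14*) and 1 was higher (*Spi1*, 1.48 ± 0.70). TE as a level, the log2 ratio of footprint CPM to RNA CPM, had a median of 0.20 over the 36 members with enough counts in WT-shSCR, where all genes had -0.05. The median was 0.17 over 31 members in the libraries labelled WT-shARF and -0.54 over 13 members in *Arf*-/--shSCR, where it turned to 0.27 over the 5 members with at least 50 counts. It was 1.38 for *Cybb*, 1.26 for *Fcer1g* and 1.08 for *Cx3cr1* in WT-shSCR, and -1.43 for *Fcgr3*. Over the 13 members with enough counts in *Arf*-/--shSCR it ranged from -2.26 for *Itgam* and -1.96 for *Ctss* to 0.89 for *Apoe*.

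**Figure D5:**
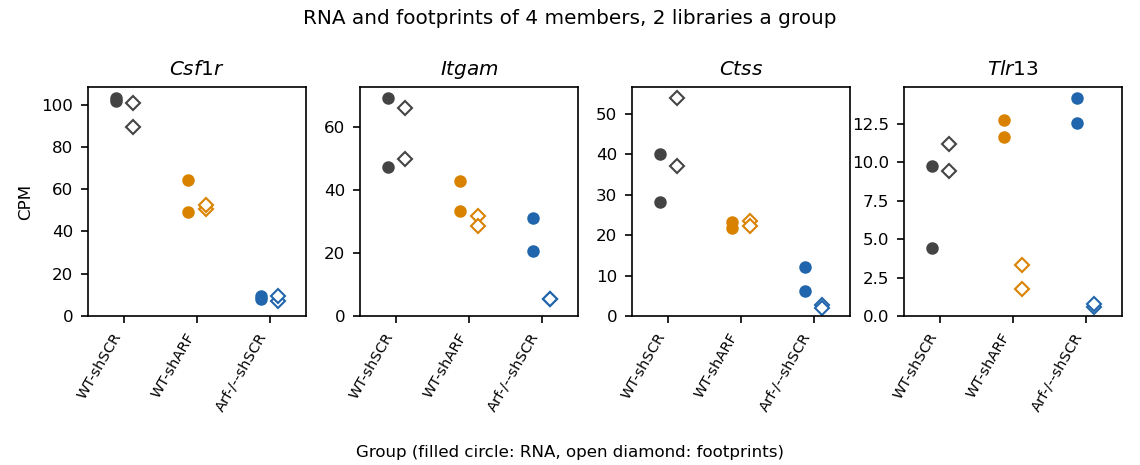
CPM of *Csf1r*, *Itgam*, *Ctss* and *Tlr13* in each library, by group, with RNA as filled circles and footprints as open diamonds. For *Csf1r* both assays sit together in every group, while in *Arf*-/--shSCR the RNA of *Itgam* (20.7 and 31.1 CPM) and of *Tlr13* (14.2 and 12.5 CPM) sits above their footprints.

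Other genes of the same pathways were read from lists of which no gene is among the 43. Earlier results of these data were known when the lists were chosen, so nothing is read from their calls in *Arf*-/--shSCR. A gene with few counts could pass the filter only through the group where it was high, which limits the direction it could take. Of 20 further macrophage genes, 7 passed the filter for RNA in the comparison of *Arf*-/--shSCR with WT-shSCR, and 4 were called lower (3.99% of all genes tested) and 1 higher (3.94% of all genes tested). In footprints 9 of 9 tested were called lower and 0 higher (8.95% of all genes tested called lower and 9.57% higher). Among them, *Ly86* and *Cd48* passed the filter through WT-shSCR. Their footprint counts were 11 and 7 for *Ly86* and 9 and 8 for *Cd48* in WT-shSCR, against 2 and 0 and 1 and 3 in *Arf*-/--shSCR. *F13a1*, the gene called higher in RNA, was not tested in footprints. *Stab1*, which encodes the scavenger receptor stabilin-1, had RNA counts of 376 and 190 in WT-shSCR, 113 and 178 in the libraries labelled WT-shARF and 26 and 28 in *Arf*-/--shSCR. It fell in the libraries labelled WT-shARF in RNA (-1.42 ± 0.19, adjusted p = 9.82e-06) and in footprints (-1.38 ± 0.17, adjusted p = 7.67e-07, edgeR). *Adgre1*, which encodes the macrophage antigen F4/80, had RNA counts of 120 and 68 in WT-shSCR, 62 and 88 in the libraries labelled WT-shARF and 13 and 10 in *Arf*-/--shSCR. Its footprints fell in the libraries labelled WT-shARF (-1.57 ± 0.33, adjusted p = 0.00134, edgeR). In those libraries 2 of 6 genes of this list tested fell in RNA and 0 rose (4.17% of all genes tested called lower and 3.11% higher), and 3 of 8 fell in footprints and 0 rose (5.5% called lower and 5.63% higher).

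Of 16 genes of signalling below Fc receptors and ITAM adaptors, 10 were tested in RNA, of which 7 were called lower in *Arf*-/--shSCR (3.99% of all genes tested) and 0 in the libraries labelled WT-shARF (4.17%). In footprints 8 of 11 tested were called lower in *Arf*-/--shSCR (8.95% of all genes tested). *Syk*, the kinase that binds phosphorylated ITAMs, had RNA counts of 36 and 30 in WT-shSCR, 32 and 75 in the libraries labelled WT-shARF and 31 and 20 in *Arf*-/--shSCR, with log2 fold changes of 0.11 ± 0.35 and -0.69 ± 0.39 in the latter 2 groups, neither called. *Lyn*, a Src-family kinase, had -1.25 ± 0.32 in *Arf*-/--shSCR, where it was called lower, and 0.06 ± 0.25 in the libraries labelled WT-shARF, where it was not called. Among the NADPH oxidase partners, *Cyba*, which many cell types express, had a log2 fold change in RNA of -0.03 ± 0.18 in *Arf*-/--shSCR and was not called. Among 8 further transcription factors of myeloid cells, 0 of 6 tested were called in RNA in *Arf*-/--shSCR.

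The ligand of CSF1R was plentiful in every group. *Csf1* RNA was at 361 and 323 CPM in WT-shSCR, 353 and 373 in the libraries labelled WT-shARF and 269 and 270.3 in *Arf*-/--shSCR. *Csf1* footprints were at 672 and 610.3 CPM in WT-shSCR, 651 and 611 in the libraries labelled WT-shARF and 462 and 519 in *Arf*-/--shSCR, with a log2 fold change of -0.03 ± 0.08 in the libraries labelled WT-shARF (adjusted p = 0.869, edgeR) and -0.42 ± 0.09 in *Arf*-/--shSCR. *Il34*, the other ligand of CSF1R, had 0 to 5 RNA counts per library. Markers of other blood cells differed in level. The 5 neutrophil markers counted summed to 256 to 319.9 RNA CPM in WT-shSCR, 224 to 234 in the libraries labelled WT-shARF and 302 to 362 in *Arf*-/--shSCR, nearly all of it *Mpo*, with footprint sums between 0 and 1.77 CPM. Over the RNA libraries, 8 lymphocyte markers summed to between 2.55 and 7.54 CPM, 5 erythroid markers to between 0 and 1.46 CPM, 6 mast cell markers to between 0.637 and 10.1 CPM and 6 genes of MHC class II to between 2.16 and 7.91 CPM. The 7 osteoclast markers summed to 6.03 to 10.2 RNA CPM in WT-shSCR and 16 to 19.3 in *Arf*-/--shSCR. Most of the *Arf*-/--shSCR sum was *Ctsk*, with RNA counts of 14 and 8 in WT-shSCR and 40 and 29 in *Arf*-/--shSCR, not called. In footprints the osteoclast sums overlapped, at 10.7 to 18.6 CPM in WT-shSCR and 13.6 to 13.9 in *Arf*-/--shSCR. The summed epithelial markers were higher in *Arf*-/--shSCR, through *Krt8* and *Krt18*. The 6 genes summed to 15.4 to 19.1 RNA CPM in WT-shSCR, 13.8 to 19.3 in the libraries labelled WT-shARF and 39.3 to 58.8 in *Arf*-/--shSCR. *Krt18* RNA counts were 33 and 28 in WT-shSCR and 55 and 88 in *Arf*-/--shSCR. *Epcam*, *Cdh1*, *Krt5* and *Krt14* had 0 to 4 RNA counts per library in these 2 groups. The part of the epithelial markers in the differences of the macrophage and myeloid genes was not tested.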

How the data were processed

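RNAseq and ribosome profiling were analysed in 12 libraries of MEFs, 2 for each of 3 groups and 2 assays, grouped by the sample labels. Footprints were made with RNase T1. Before deposition the authors isolated fragments of 17 to 34 nt, clipped adapters, took off barcodes and molecular identifiers, discarded rRNA and noncoding RNA reads, aligned to mm10 with TopHat and tallied coding-sequence reads with HTSeq. The deposited counts are raw whole numbers per gene. Collapsing of duplicate reads is not named, nor is a strand setting. Alignments that were not unique (79.2% to 81.4% of alignments in RNAseq, 46.3% to 52.9% in ribosome profiling) are left out of the counts, which bears on paralogs.

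edgeR 4.0.16 in R 4.3.3 gave TMM factors, filterByExpr filtering and quasi-likelihood F tests over all genes, with calls at a Benjamini-Hochberg adjusted p under 0.05. Fits used the 4 libraries compared, or 8 for TE, and errors after ± are standard errors. The smallest exact permutation p for 2 against 2 is 0.33. TE levels needed 20 counts per assay. Members and lists were chosen with earlier results of these data known. Values in every library are given for the 3 members of each role with the highest mean RNA CPM, the extremes of each RNA comparison, members called in TE, and *Tyrobp*, *Fcgr1*, *Tlr8* and *Tlr13*. Other genes named come from the fixed lists, by their 2 highest means, with *Csf1*, *Il34*, *Adgre1* and *Syk*, and some of them are not reported here. Alternatives were DESeq2 1.42.0, RLE factors, other filters, all groups in one fit, a replicate block and leaving out each replicate. Gene positions are from GENCODE M21, and promoters from RefSeq on GRCm38.p6. The fits were first tested on simulated data. Figures were drawn with matplotlib in Python.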

Additional observations from a re-analysis of the deposited data

How the results depend on the processing

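Counts of members called lower were the same under RLE factors in all 8 comparisons. Those that moved by over 1.5 times follow, and the cause was not tested. For *Arf*-/--shSCR against WT-shSCR, a minimum of 10 counts in every library gave 10 in RNA and 14 in footprints, where fewer members could be tested, and DESeq2 gave 0 in TE. For the libraries labelled WT-shARF against WT-shSCR, DESeq2 gave 8 in RNA. For *Arf*-/--shSCR against the libraries labelled WT-shARF, RNA gave 5 with DESeq2, 20 with no filter, 5 with the minimum of 10 counts and 18 with all 3 conditions in one fit, and footprints gave 13 with the minimum of 10 counts. With one replicate left out, where the lone sample is assumed to vary like the other groups, the counts ranged from 12 to 29 (RNA) and 0 to 33 (footprints) for *Arf*-/--shSCR against WT-shSCR, from 5 to 13 and 9 to 15 for WT-shARF against WT-shSCR, and from 1 to 14 and 0 to 20 for *Arf*-/--shSCR against WT-shARF. In TE they ranged from 0 to 3 and, for WT-shARF, were 0 throughout. The libraries behind the lowest counts were WT-shSCR replicate 1 (RNA 12, footprints 0) and replicate 2 (RNA 18, footprints 0), WT-shARF replicate 2 (RNA 5, footprints 9) and, against *Arf*-/--shSCR, WT-shARF replicates 1 and 2 (RNA 2 and 1, footprints 0 for each). Summed levels without *Apoe* and *Lyz2* were 4.85 (RNA) and 6.85 (footprints) times higher in WT-shSCR than in *Arf*-/--shSCR, and 1.82 and 1.73 times higher than in WT-shARF. Leaving out a replicate gave 5.43 to 7.44, 7.65 to 9.35, 2.06 to 2.46 and 2.14 to 2.35 times for all 43 members in that order. Median TE levels with 50 counts were 0.50 in WT-shARF (0.17 with 20 counts) and 0.27 in *Arf*-/--shSCR (-0.54 with 20 counts, so that the sign turned), and with a replicate left out 0.13 to 0.38 in WT-shSCR, 0.26 to 0.30 in WT-shARF and -0.10 to 0.017 in *Arf*-/--shSCR. Signs turned for values near 0. For WT-shARF against WT-shSCR, leaving out a replicate gave -0.55 to 0.037 for *Cx3cr1* and -0.64 to 0.026 for *Cd14* in RNA, -0.26 to 0.054 for *Spi1* in footprints, and in TE -0.26 to 0.24 for *Csf1r*, -0.13 to 0.23 for *Apoe* and -0.90 to 0.10 for *Ctss*. For TE in *Arf*-/--shSCR it gave -0.11 to 0.15 for *Csf1r*, -0.00127 to 0.24 for *Lyz2*, -0.025 to 0.13 for *Lgmn* and -0.061 to 0.35 for *Apoe*, and *Csf1r* was also at 0.00902 with RLE factors, 0.11 with no filter and 0.041 with all 3 conditions in one fit. Over the members named, 1091 values kept their direction and side of the threshold, 139 lost the call, 30 gained it and 18 turned. Low counts limit the precision for most members outside the secreted proteins.

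The replicate numbers are shared between groups but no source says that they mark a shared culture, and same-numbered RNA libraries of different groups had deviations that correlated at -0.03 to 0.01. With a replicate block the counts of members called lower were 31, 16 and 10 in RNA and 36, 17 and 24 in footprints, in the order of comparisons above, and 2 and 0 in TE. A crossed pairing, added after the data were seen, gave 32 in RNA for *Arf*-/--shSCR against WT-shSCR and 19 against WT-shARF.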

Other observations

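*Mpo*, *F13a1* and *Irf5* had RNA with few footprints. *Mpo*, the myeloperoxidase of neutrophil granules, had RNA counts of 679 and 502 in WT-shSCR, 440 and 935 in the libraries labelled WT-shARF and 828 and 832 in *Arf*-/--shSCR, and footprint counts of 0 and 2 in WT-shSCR, 1 and 1 in the libraries labelled WT-shARF and 2 and 5 in *Arf*-/--shSCR. *F13a1*, which encodes a subunit of clotting factor XIII, had RNA counts of 100 and 53 in WT-shSCR, 87 and 129 in the libraries labelled WT-shARF and 365 and 138 in *Arf*-/--shSCR, and between 0 and 8 footprint counts per library. *Irf5*, an interferon regulatory factor, had RNA counts of 525 and 205 in WT-shSCR, 279 and 591 in the libraries labelled WT-shARF and 370 and 809 in *Arf*-/--shSCR, and between 42 and 76 footprint counts per library. *Cebpb*, a transcription factor that fibroblasts also express, had reads in both assays, with RNA counts of 134 and 64 in WT-shSCR, 56 and 117 in the libraries labelled WT-shARF and 145 and 118 in *Arf*-/--shSCR, and footprint counts of 116 and 111 in WT-shSCR, 103 and 158 in the libraries labelled WT-shARF and 226 and 204 in *Arf*-/--shSCR.

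The *Arf*-/--shSCR replicates stood apart for *Msr1*, a scavenger receptor chosen for naming after its values were seen. Its RNA counts were 41 and 22 in WT-shSCR, 9 and 30 in the libraries labelled WT-shARF and 107 and 5 in *Arf*-/--shSCR. In footprints the counts were 61 and 100 in WT-shSCR, 17 and 34 in the libraries labelled WT-shARF and 99 and 11 in *Arf*-/--shSCR. Of the epithelial markers, *Krt8* had RNA counts of 3 and 0 in WT-shSCR, 2 and 2 in the libraries labelled WT-shARF and 46 and 42 in *Arf*-/--shSCR, and footprint counts of 6 and 0 in WT-shSCR, 5 and 6 in the libraries labelled WT-shARF and 86 and 107 in *Arf*-/--shSCR.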
